A study of Mus musculus with 24 samples.

Results

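Cathepsins are proteases that mostly work in the lysosome, and 10 of their genes were followed in mouse hepatic stellate cells, namely Ctsw, Ctsa, Ctsb, Ctsc, Ctsd, Ctsh, Ctsk, Ctsl, Ctss and Ctsz. The genes were taken by name, and all 10 of 10 were found among 16604 genes, which hold 15 genes with a cathepsin name. The set was chosen with its levels known: Ctsw was picked on its level in TGFb and vehicle libraries and Ctsl on its level in SR9011 and vehicle libraries. The members' values in TGFb against vehicle and in SR9011 against vehicle are therefore described without a test. Ctsw has no test where TGFb or vehicle libraries enter, and Ctsl none where SR9011 or vehicle libraries enter. Tests of the other members against TGFb or vehicle, and of their interactions, use libraries of those contrasts and are not independent of them.

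RNA was sequenced from EMS404 cells, a single line made from C57Bl6 mouse liver, immortalised with SV40 and carrying human TLR4, so every group shares these traits. The 24 libraries form 8 groups of 3, which are SB431542+TGFb, SR9011+TGFb, CLK8+TGFb, TGFb, SB431542, SR9011, CLK8 and vehicle. SB431542 inhibits the TGFb receptor, SR9011 is an agonist of the clock repressor REV-ERB, and CLK8 disturbs the pairing of CLOCK with BMAL1. Cells given a compound with TGFb had the compound for 24 h and then the compound with TGFb at 10 ng/mL for 24 h. The vehicle group is called untreated in the labels and DMSO in the library names, and the library names give DMSO for the TGFb group as well. The labels state neither the compound doses nor whether cells without TGFb stayed in culture for the later period, so TGFb and time in culture cannot be told apart.

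Most cathepsins are made as inactive precursors, carry mannose 6-phosphate tags that sort them to lysosomes, and become active in the acid interior that the vacuolar proton pump maintains. Cystatins and some serpins bind cathepsins that escape. In scarring liver, stellate cells turn into matrix-producing myofibroblasts under TGFb, and secreted or lysosomal cathepsins are among the enzymes that can cut that matrix. Cathepsin W is best known from natural killer cells and cytotoxic T cells.

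Levels are FPKM, fragments scaled to transcript length and to the library's mapped fragments, and differences are of log2(FPKM + 1), which understates changes of genes near or under 1 FPKM. A gene is called where limma gave an adjusted p under 0.05 (Benjamini-Hochberg, 11297 genes fitted). FPKM summed to 503920 to 610024 per library, 10780 to 11000 genes per library reached 1 FPKM, and read depth is unknown. Of the 10 genes, 8 reached 1 FPKM in at least 3 libraries and were fitted, while Ctsh and Ctss did not. Of 10 stellate cell markers 9 were in the table, Lrat being absent, and 7 averaged at least 1 FPKM in every group. Des stayed under 1 FPKM and Reln was listed at 0 in all libraries. All 4 mesothelial markers also exceeded 1 FPKM, and their summed level was 320 to 383 FPKM in SB431542+TGFb, 62.7 to 77 in SR9011+TGFb, 58.8 to 72 in CLK8+TGFb, 150 to 160 in TGFb, 398 to 419 in SB431542, 61.5 to 91.9 in SR9011, 83.6 to 103 in CLK8 and 305 to 327 in vehicle libraries. These markers thus moved with the compounds and with TGFb, and their part in the cathepsin differences was not tested. Nor can a change in the number of cells of a type be told from a change of RNA per cell in such bulk samples.

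Short promoter windows were read first, because several lysosomal genes carry the palindrome bound by TFEB and by CLOCK:BMAL1. RefSeq windows of the 250 bases before each start (GRCm38.p6) were matched for 7 of the 10 genes, and not for Ctsw, Ctsb and Ctsh. The E-box CACGTG, on either strand, was in windows of Ctsa, Ctsd and Ctsl, and in 6.02% of 32851 mouse promoter windows. The longer palindrome TCACGTGA, which contains it, was in those of Ctsa and Ctsd and in 0.785% of all windows. The 28 bases around these matches are shown with the motif in capitals, for Ctsa at chr2:164833750-164833777 (plus strand, motif 13 bases before the listed start), for Ctsd at chr7:142387909-142387936 (minus strand, 99 bases before) and for Ctsl at chr13:64370740-64370767 (minus strand, 236 bases before). All 3 sites lie inside the annotated span of their gene, and each of these windows holds annotated UTR bases of that gene.
Ctsa: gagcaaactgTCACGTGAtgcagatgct
Ctsd: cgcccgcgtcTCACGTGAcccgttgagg
Ctsl: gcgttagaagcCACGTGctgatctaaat
The 3 genes that hold the E-box, Ctsa, Ctsd and Ctsl, are among the 5 most abundant of the set in these cells. Of the other abundant genes, Ctsz had no E-box in its window and Ctsb had no window. A link between the motif and the level was not tested. The SMAD palindrome GTCTAGAC and the AP-1 motif TGACTCA were in none of the 8 windows read, and in 0.167% and 4.46% of all windows, on either strand. The short SMAD element CAGAC, searched in the same way, was in windows of Ctsa, Ctsk, Ctsl and Ctsz and in 42.2% of all windows. These matches describe letters only, and binding was not measured.

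The cells held 5 cathepsin genes at high levels and 5 at low or variable ones. Ctsb, Ctsd, Ctsl, Ctsa and Ctsz all exceeded 80 FPKM in every library, whereas Ctsc ranged from 1.2 to 3.23 FPKM, Ctsk from 0.9 to 4.65 and Ctsh from 0.25 to 0.93. Ctss, the gene of the invariant chain protease of antigen-presenting cells, was listed at 0 in 19 libraries and reached at most 0.09. The summed level of the 10 genes was 1400 ± 25.5 FPKM in SB431542+TGFb, 1906 ± 20.2 in SR9011+TGFb, 1200 ± 73.3 in CLK8+TGFb and 862 ± 6.49 in TGFb libraries (SD, n = 3 each). In the groups without TGFb it was 1551 ± 43.4 FPKM with SB431542, 2288 ± 126 with SR9011, 1699 ± 49.5 with CLK8 and 1253 ± 32.3 with vehicle. The TGFb group was thus lowest and the SR9011 group highest, and the sum took 0.16% and 0.39% of all FPKM there. Ctsl led the order of means in both SR9011 groups, Ctsd led with TGFb alone and with CLK8+TGFb, and Ctsb led in the other groups.

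**Figure D1:**
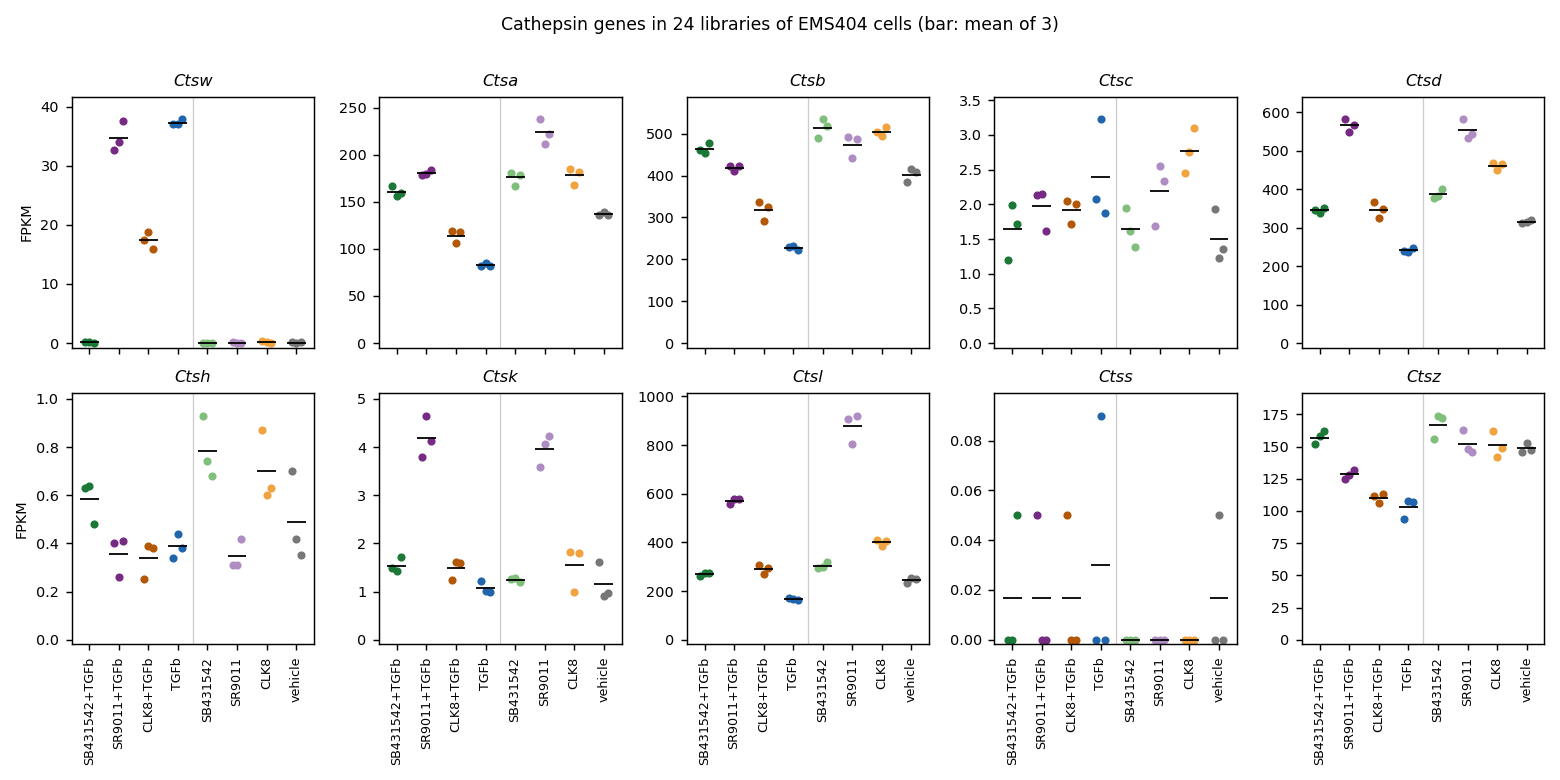
FPKM of the 10 cathepsin genes (vertical axes, each from 0) in the 24 libraries by group (horizontal axes), where points are libraries and bars are means of 3. Ctsw stands at 15.9 FPKM or more in 3 of the 4 groups with TGFb and at 0.3 or less in the other groups, while Ctsl peaks at 805 to 921 FPKM with SR9011.

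Ctsw (ENSMUSG00000024910, chromosome 19, 5465043 to 5468507, minus strand) codes for cathepsin W. It had 0.17, 0.18 and 0.03 FPKM in SB431542+TGFb libraries, 32.6, 34 and 37.5 FPKM in SR9011+TGFb libraries, 17.5, 18.8 and 15.9 FPKM in CLK8+TGFb libraries, and 37, 37 and 37.9 FPKM in TGFb libraries. Without TGFb it had 0.06, 0 and 0.03 FPKM with SB431542, 0.11, 0 and 0.06 FPKM with SR9011, 0.3, 0.12 and 0.09 FPKM with CLK8, and 0.12, 0.03 and 0.12 FPKM with vehicle. The gene therefore reached 1 FPKM in 9 libraries, all of them given TGFb without SB431542. The SR9011+TGFb and TGFb libraries overlapped at the top, the CLK8+TGFb libraries formed a middle level below both, and no library of the remaining 5 groups exceeded 0.3 FPKM. The choice of Ctsw rests on the TGFb and vehicle values, which differed by 5.14 on the log2 scale.

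The TGFb response under each compound was tested in libraries that did not guide that choice. Ctsw was, however, chosen for its TGFb difference in this same cell line. It also passed the filter only through the 9 libraries where it is high, so the p-values are not free of selection. The same limit holds for the comparisons between compounds that follow. Ctsw was higher in SR9011+TGFb than in SR9011 libraries by 5.08 (SE 0.0757, limma adjusted p = 2.01e-23), where 45.3% of all genes were called. It was higher in CLK8+TGFb than in CLK8 libraries by 3.98 (SE 0.0757, limma adjusted p = 9.59e-22), where 51.9% of all genes were called. All 3 libraries with TGFb lay above all 3 without it in each case. Between SB431542+TGFb and SB431542 libraries the difference was 0.13 (95% interval -0.02 to 0.28, limma adjusted p = 0.429), with 4.36% of all genes called, and the libraries overlapped.

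The size of the Ctsw response was then compared between compounds, in 3 comparisons added after the values were seen and free of the TGFb and vehicle libraries. The response with CLK8 was smaller than that with SR9011 by a log2 difference of -1.10 (SE 0.107, limma adjusted p = 9.22e-08), in a comparison that called 26.4% of all genes. The response with SB431542 was smaller than that with SR9011 by -4.95 (SE 0.107, limma adjusted p = 8.34e-20, 26.7% of all genes called). It was smaller than that with CLK8 by -3.85 (SE 0.107, limma adjusted p = 7.5e-18, 27.7% of all genes called). Against TGFb alone, the described differences were -5.09 for SB431542+TGFb, -0.10 for SR9011+TGFb and -1.06 for CLK8+TGFb, without a test. Because Ctsw lay near 0 without TGFb, these sizes depend on the pseudocount. With 0.1 in place of 1 the Ctsw response was 7.86 with SR9011, 6.09 with CLK8 and 0.75 with SB431542 (limma adjusted p = 0.198), and the CLK8 response differed from the SR9011 response by -1.76 (limma adjusted p = 0.00378).

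Markers of the cells in which cathepsin W is best known were near 0. Of 9 cytotoxic lymphocyte markers, such as Cd3e, Nkg7 and Prf1, 7 were in the table, and each stayed under 1 FPKM in every library. Their summed level was 0.01 to 0.07 FPKM in SB431542+TGFb, 0.08 to 0.22 in SR9011+TGFb, 0 to 0.06 in CLK8+TGFb, 0 to 0.02 in TGFb, 0 to 0.07 in SB431542, 0.03 in SR9011, 0 to 0.01 in CLK8 and 0 to 0.02 in vehicle libraries. Of 5 leukocyte and macrophage markers in the table, Cd68 alone reached a mean of 1 FPKM, and the summed level stayed between 1.14 and 3.36 FPKM in every library.

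The genes around Ctsw did not share its pattern. The 10 fitted genes within 50000 bases included Fosl1, which codes for an AP-1 subunit, Fibp, whose exons overlap those of Ctsw by 9 bases on the other strand, and Snx32, which codes for a sorting nexin. In SR9011+TGFb against SR9011 libraries, 1 neighbour rose and 3 fell, where 45.3% of all genes were called. The differences lay between -0.37 for Snx32 and 0.54 for Fosl1. In CLK8+TGFb against CLK8 libraries, 1 rose and 3 fell again, between -0.53 for Snx32 and 0.63 for Fosl1. There 51.9% of all genes were called, so calls of this kind are common in both comparisons. Fibp had 34.1 ± 1.21 FPKM in TGFb and 39.7 ± 1.87 FPKM in vehicle libraries (SD, n = 3 each), so between these groups the overlapping gene was lower where Ctsw was high. In the other groups with high Ctsw, Fibp averaged 38.2 FPKM with SR9011+TGFb and 40.4 FPKM with CLK8+TGFb. Whether the libraries keep strand is not stated in the labels.

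**Figure D2:**
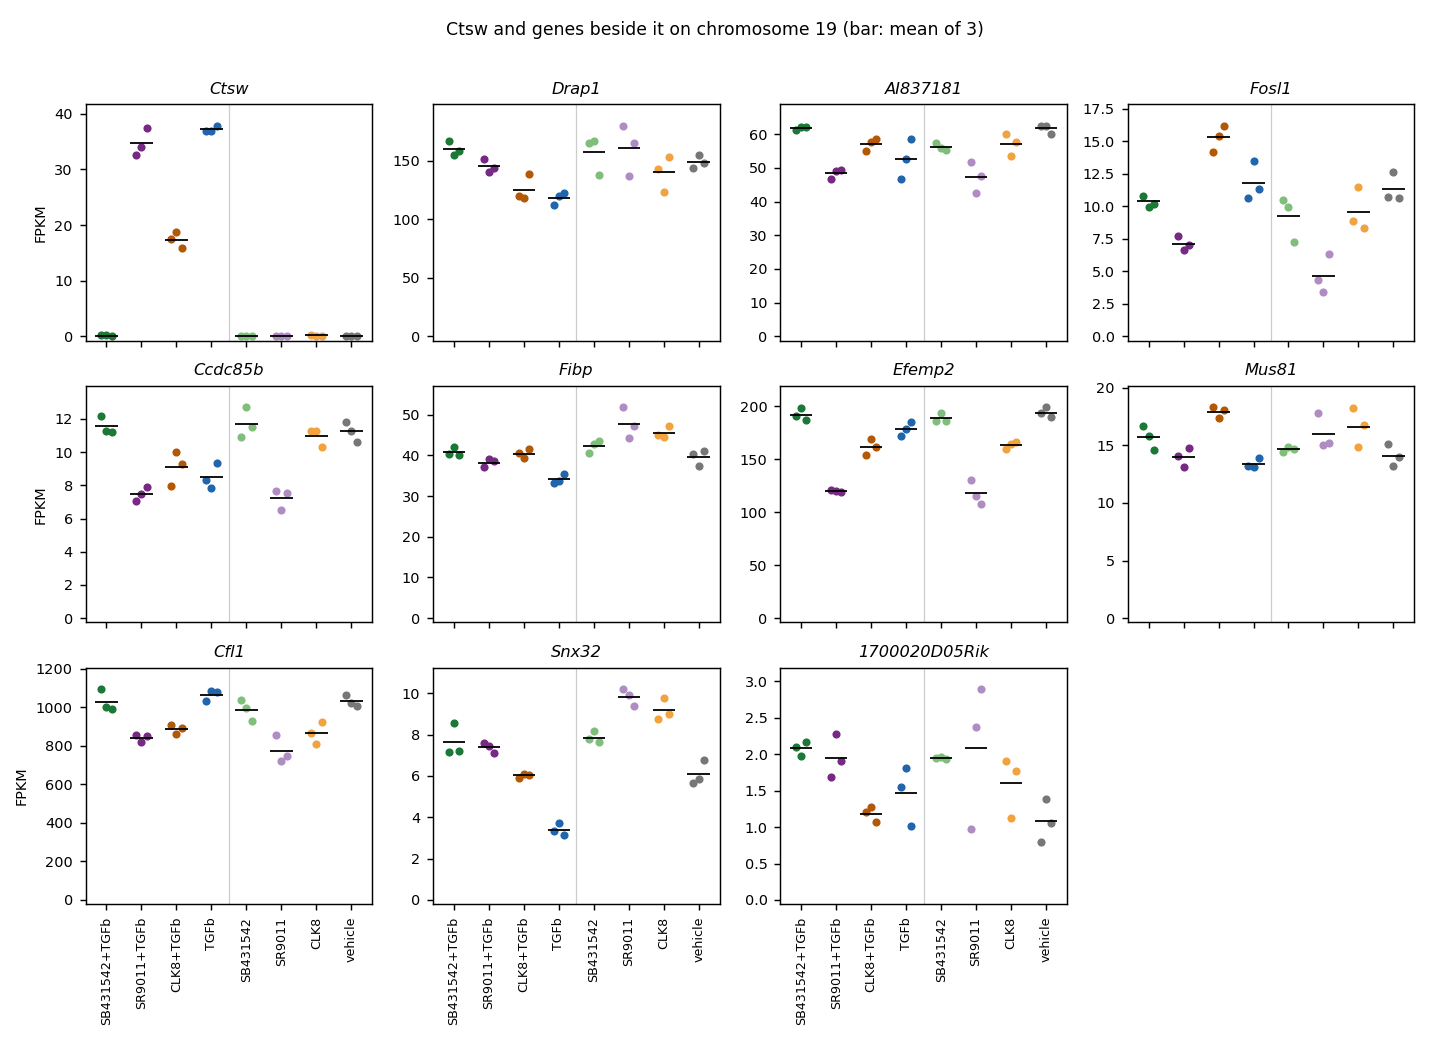
FPKM of Ctsw and the 10 fitted genes within 50000 bases of it on chromosome 19 (vertical axes, each from 0) by group (horizontal axes). Points are libraries and bars are means of 3, and no neighbour shows the near-absence without TGFb that Ctsw shows.

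Genes with the pattern most like Ctsw were ranked by Pearson r of mean log2(FPKM + 1) over the 8 groups, a description over points that share one cell line and one normalization. The first 5 were Dyrk2, which codes for a kinase (r = 0.991), the keratin gene Krt80 (0.990), the clathrin adaptor gene Ap1s2 (0.990), the ectonucleotidase gene Nt5e (0.989) and the homeobox gene Six4 (0.989). Nt5e had mean levels of 0.217 FPKM in SB431542+TGFb, 7.11 in SR9011+TGFb, 7.96 in CLK8+TGFb and 11.8 in TGFb libraries, against 0.2 to 0.417 FPKM in the groups without TGFb. Dyrk2 had 9.35 FPKM in SB431542+TGFb, 26.1 in SR9011+TGFb, 21.3 in CLK8+TGFb and 23.2 in TGFb libraries, against 8.43 to 10.3 FPKM without TGFb, so it was present throughout. Over the 24 single libraries 1 of these 5 stayed among the first 5, namely Nt5e (r = 0.988). Among the other cathepsin genes, Ctsz ran most opposite to Ctsw over the 8 groups (r = -0.907).

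Of the abundant members, Ctsl (ENSMUSG00000021477, chromosome 13, 64359337 to 64370890, minus strand) codes for the cysteine endopeptidase cathepsin L. It had 260, 273 and 274 FPKM in SB431542+TGFb libraries, 557, 580 and 579 FPKM in SR9011+TGFb libraries, 306, 269 and 296 FPKM in CLK8+TGFb libraries, and 170, 166 and 163 FPKM in TGFb libraries. In the absence of TGFb the levels were 295, 299 and 318 FPKM with SB431542, 909, 805 and 921 FPKM with SR9011, 409, 385 and 405 FPKM with CLK8, and 235, 255 and 251 FPKM with vehicle. From the top, SR9011, SR9011+TGFb and CLK8 libraries each stood apart, CLK8+TGFb libraries overlapped those of SB431542 and of SB431542+TGFb, and vehicle and then TGFb libraries lay below them all. The SR9011 and vehicle values, which chose the gene, differed by 1.82. Under TGFb, in libraries not used in that choice, Ctsl was higher in SR9011+TGFb than in TGFb libraries by 1.77 (SE 0.0546, limma adjusted p = 2.36e-17), where 60.8% of all genes were called. The gene was, however, chosen for its SR9011 difference in this same cell line, so this p-value is not free of selection. Ctsl was also higher than with TGFb alone in CLK8+TGFb libraries by 0.80 (limma adjusted p = 1.19e-10) and in SB431542+TGFb libraries by 0.69 (limma adjusted p = 2.1e-10). Of all genes, 41.1% and 59.7% were called there, in the order named. It was lower in CLK8+TGFb than in CLK8 libraries by -0.46 (limma adjusted p = 2.03e-07).

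Ctsd (ENSMUSG00000007891, chromosome 7, 142375911 to 142388038, minus strand) codes for the main aspartic protease of lysosomes. It had 345, 339 and 352 FPKM in SB431542+TGFb libraries, 582, 549 and 566 FPKM in SR9011+TGFb libraries, 367, 324 and 348 FPKM in CLK8+TGFb libraries, and 240, 237 and 246 FPKM in TGFb libraries. Cells not given TGFb had 378, 382 and 399 FPKM with SB431542, 581, 534 and 544 FPKM with SR9011, 468, 450 and 464 FPKM with CLK8, and 311, 314 and 319 FPKM with vehicle. Both SR9011 groups lay above all others and overlapped each other, and the TGFb libraries lay below all others. Ctsd was higher in SR9011+TGFb than in TGFb libraries by 1.23 (SE 0.0459, limma adjusted p = 3.99e-16), while SR9011+TGFb and SR9011 libraries differed by 0.03 (95% interval -0.06 to 0.12, limma adjusted p = 0.588).

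Ctsb (ENSMUSG00000021939, chromosome 14, 63122462 to 63145923, plus strand) codes for a cysteine protease that also trims dipeptides from carboxyl ends. It had 461, 453 and 477 FPKM in SB431542+TGFb libraries, 422, 410 and 423 FPKM in SR9011+TGFb libraries, 336, 291 and 325 FPKM in CLK8+TGFb libraries, and 230, 231 and 222 FPKM in TGFb libraries. Libraries without TGFb had 490, 535 and 518 FPKM with SB431542, 492, 441 and 488 FPKM with SR9011, 505, 494 and 515 FPKM with CLK8, and 384, 415 and 408 FPKM with vehicle. The 3 compound groups without TGFb all lay above vehicle, and the TGFb libraries were lowest, without overlap. Among the compounds under TGFb, the difference from TGFb alone was 1.02 with SB431542 (SE 0.0534, limma adjusted p = 1.28e-13), 0.88 with SR9011 and 0.48 with CLK8. The exons of Ctsb share 774 bases with Fdft1 on the other strand, so its values are less certain.

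Ctsa (ENSMUSG00000017760, chromosome 2, 164832873 to 164841032, plus strand) codes for the carboxypeptidase that protects neuraminidase and beta-galactosidase in the lysosome. It had 167, 156 and 159 FPKM in SB431542+TGFb libraries, 179, 180 and 184 FPKM in SR9011+TGFb libraries, 119, 106 and 118 FPKM in CLK8+TGFb libraries, and 81.7, 85.3 and 81.4 FPKM in TGFb libraries. Without TGFb it had 181, 167 and 179 FPKM with SB431542, 238, 212 and 222 FPKM with SR9011, 185, 168 and 182 FPKM with CLK8, and 136, 139 and 136 FPKM with vehicle. TGFb libraries were again lowest and SR9011 libraries highest, and each stood apart from every other group. Exons of Ctsa share 495 bases with Pltp and 324 with Neurl2 on the other strand, which limits its values in the same way.

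Ctsz (ENSMUSG00000016256, chromosome 2, 174427493 to 174439039, minus strand) codes for a carboxypeptidase that removes single residues. It had 152, 158 and 162 FPKM in SB431542+TGFb libraries, 125, 128 and 132 FPKM in SR9011+TGFb libraries, 112, 106 and 113 FPKM in CLK8+TGFb libraries, and 93.7, 108 and 107 FPKM in TGFb libraries. In the absence of TGFb the levels were 156, 174 and 172 FPKM with SB431542, 163, 148 and 146 FPKM with SR9011, 162, 142 and 149 FPKM with CLK8, and 146, 153 and 147 FPKM with vehicle. SR9011+TGFb, CLK8+TGFb and TGFb libraries all lay below the groups without TGFb, whereas SB431542+TGFb libraries overlapped SB431542 libraries. CLK8+TGFb and TGFb libraries overlapped, with a difference of 0.10 (95% interval -0.01 to 0.22, limma adjusted p = 0.177).

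Among the scarce members, Ctsk (ENSMUSG00000028111, chromosome 3, 95499256 to 95509362, plus strand) codes for the collagen-cutting cathepsin known from osteoclasts. It had 1.48, 1.42 and 1.72 FPKM in SB431542+TGFb libraries, 3.79, 4.65 and 4.12 FPKM in SR9011+TGFb libraries, 1.24, 1.61 and 1.59 FPKM in CLK8+TGFb libraries, and 1.22, 1.01 and 0.98 FPKM in TGFb libraries. Cells not given TGFb had 1.25, 1.28 and 1.2 FPKM with SB431542, 3.58, 4.06 and 4.23 FPKM with SR9011, 1.83, 1 and 1.81 FPKM with CLK8, and 1.61, 0.9 and 0.97 FPKM with vehicle. Both SR9011 groups stood above all others and overlapped each other, and SR9011+TGFb exceeded TGFb by 1.32 (SE 0.117, limma adjusted p = 1.36e-09). Of 5 osteoclast markers 2 were in the table, and their summed level was at most 0.31 FPKM.

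Ctsc (ENSMUSG00000030560, chromosome 7, 88278085 to 88310888, plus strand) codes for the dipeptidyl peptidase that activates granule proteases of leukocytes. It had 1.2, 1.99 and 1.72 FPKM in SB431542+TGFb libraries, 2.13, 2.15 and 1.62 FPKM in SR9011+TGFb libraries, 2.05, 1.72 and 2 FPKM in CLK8+TGFb libraries, and 2.07, 3.23 and 1.88 FPKM in TGFb libraries. Libraries without TGFb had 1.95, 1.61 and 1.38 FPKM with SB431542, 1.69, 2.55 and 2.34 FPKM with SR9011, 2.45, 2.75 and 3.1 FPKM with CLK8, and 1.93, 1.22 and 1.36 FPKM with vehicle. CLK8 libraries lay above vehicle libraries, with a difference of 0.60 (SE 0.141, limma adjusted p = 0.00158), and replicate 2 of TGFb held the highest value. Ctsh (ENSMUSG00000032359, chromosome 9, 90054152 to 90076089, plus strand), the gene of an aminopeptidase, averaged 0.583 ± 0.0896 FPKM in SB431542+TGFb, 0.357 ± 0.0839 in SR9011+TGFb, 0.34 ± 0.0781 in CLK8+TGFb and 0.387 ± 0.0503 in TGFb libraries (SD, n = 3 each). Its averages without TGFb were 0.783 ± 0.131 FPKM with SB431542, 0.347 ± 0.0635 with SR9011, 0.7 ± 0.148 with CLK8 and 0.49 ± 0.185 with vehicle. Fitted without the filter on low values, Ctsh was lower in CLK8+TGFb than in CLK8 libraries by -0.34 (limma adjusted p = 0.00202) and higher in SB431542 than in vehicle libraries by 0.26 (limma adjusted p = 0.0368). Ctss (ENSMUSG00000038642, chromosome 3, 95526786 to 95556403, plus strand) gave no level to compare.

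Compared with vehicle, TGFb alone came with lower levels of all 5 abundant genes, each without overlap between the groups. The described differences were -0.82 for Ctsb, -0.72 for Ctsa, -0.57 for Ctsl, -0.53 for Ctsz and -0.38 for Ctsd, while Ctsc (0.43) and Ctsk (-0.05) overlapped. Of all genes 54.9% were called there, so a difference between these groups is common. The share of all genes whose libraries did not overlap was not counted. Ctsw, which was chosen on these same values, was the single member whose libraries were higher with TGFb than with vehicle without overlap.

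That decrease was tested where the compounds were present. In CLK8+TGFb against CLK8 libraries, 7 of 8 fitted members were called, Ctsw higher and 6 lower, against 51.9% of all genes. Ctsb fell by 0.67 (SE 0.0534, limma adjusted p = 2.65e-10), Ctsa fell by 0.64, Ctsz fell by 0.45 and Ctsd fell by 0.41, and no TGFb-treated library of these 4 genes reached a CLK8 library. Ctsc fell by 0.36 (limma adjusted p = 0.0349), a call lost without CLK8+TGFb replicate 2 or 3, or without CLK8 replicate 2 or 3 (limma adjusted p = 0.0559 to 0.126). It was also lost with no filter on low values (limma adjusted p = 0.0629), under TPM (limma adjusted p = 0.108) and after quantile normalization (limma adjusted p = 0.0905). In SR9011+TGFb against SR9011 libraries, 4 of 7 tested members were called, a share near the 45.3% of all genes. Ctsa fell by 0.30 (limma adjusted p = 4.13e-05), Ctsz fell by 0.24 (limma adjusted p = 0.00189) and Ctsb fell by 0.18 (limma adjusted p = 0.00897), the Ctsb call being lost when the 2 groups were fitted alone (limma adjusted p = 0.0688). Ctsl, described there without a test, differed by -0.62, with means of 572 FPKM in SR9011+TGFb and 878 FPKM in SR9011 libraries and no overlap. Its described difference between TGFb and vehicle libraries was -0.57. In SB431542+TGFb against SB431542 libraries only Ctsd of 8 was called, at -0.16 (limma adjusted p = 0.0479), and that call was lost without any 1 of the 6 libraries (limma adjusted p = 0.055 to 0.242), after quantile normalization and with the compared groups fitted alone. Under TPM the call of Ctsd was lost (limma adjusted p = 0.0579) and Ctsl was called in its place (-0.16, limma adjusted p = 0.0481). With the replicate number as a block the count there was also 1.

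**Figure D3:**
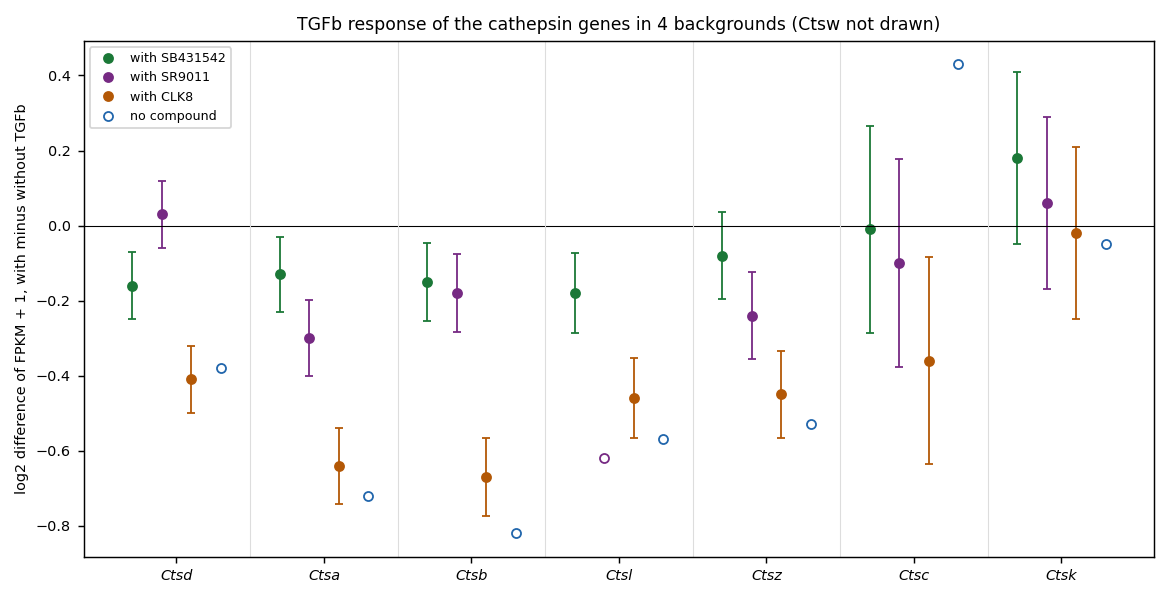
Log2 difference of FPKM + 1 between libraries with and without TGFb (vertical axis) for 7 cathepsin genes (horizontal axis) with SB431542, SR9011, CLK8 or no compound. Filled points were tested and carry 95% intervals, and open points are described only. Points with SB431542 lie nearer 0 than those with CLK8 for Ctsa, Ctsb, Ctsl, Ctsd and Ctsz.

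Whether a compound altered the TGFb response was tested as an interaction, the TGFb difference with the compound minus that without it. These interactions subtract the TGFb difference from vehicle, which was described above without a test. SB431542 interacted with TGFb for 4 of 6 tested members, against 34.3% of all genes. The positive interactions, which mean a smaller decrease, were 0.67 for Ctsb (SE 0.0755, limma adjusted p = 2.66e-07), 0.60 for Ctsa, 0.45 for Ctsz and 0.22 for Ctsd. SR9011 interacted for 5 of 6, against 31.9% of all genes, with 0.64 for Ctsb (SE 0.0755, limma adjusted p = 1.25e-06), 0.42 for Ctsa, 0.42 for Ctsd and 0.29 for Ctsz. The fifth was Ctsc at -0.53 (limma adjusted p = 0.0466), which was lost without TGFb replicate 2 (-0.36, limma adjusted p = 0.15) and without 6 other libraries, and likewise with no filter, under TPM and with the compared groups fitted alone (limma adjusted p = 0.0524 to 0.0826). CLK8 interacted for 1 of 6, against 7.97% of all genes, namely Ctsc at -0.79 (SE 0.2, limma adjusted p = 0.0145). For Ctsa and Ctsb the CLK8 interactions were 0.08 (95% interval -0.06 to 0.23) and 0.15 (95% interval 0.00 to 0.30) and were not called. The interactions of Ctsl, described without a test, were 0.39 with SB431542, -0.05 with SR9011 and 0.11 with CLK8.

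Each compound was also set against its control without TGFb. SB431542 against vehicle called 3 of 6 tested members, all higher, where 16.9% of all genes were called. Ctsa and Ctsb rose by 0.35 each (limma adjusted p = 3e-05 and 4.61e-05), and Ctsd rose by 0.29 (limma adjusted p = 6.24e-05), the libraries not overlapping. CLK8 against vehicle called 4 of 6, all higher, where 43.9% of all genes were called. Ctsd rose by 0.55 (SE 0.0459, limma adjusted p = 1.84e-09), Ctsa by 0.37, Ctsb by 0.33 and Ctsc by 0.60. Ctsk differed by 0.23 (limma adjusted p = 0.111), and was called without CLK8 replicate 2 (0.40, limma adjusted p = 0.00511) or without vehicle replicate 1 (0.38, limma adjusted p = 0.0123). SR9011 against vehicle, described only and with 69.1% of all genes called, gave 1.82 for Ctsl, 1.21 for Ctsk, 0.81 for Ctsd, 0.70 for Ctsa, 0.23 for Ctsb and 0.03 for Ctsz.

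Each compound was set against TGFb alone as well. SB431542+TGFb against TGFb called all 7 tested, 6 higher and Ctsc lower, where 59.7% of all genes were called. The rises ran from 0.30 for Ctsk to 1.02 for Ctsb, with 0.95 for Ctsa, 0.61 for Ctsz and 0.52 for Ctsd. The Ctsk call (limma adjusted p = 0.0343) was lost after quantile normalization (0.13, limma adjusted p = 0.345), with no filter (limma adjusted p = 0.0596), under TPM (limma adjusted p = 0.0522), and without TGFb replicate 2 or 3 or SB431542+TGFb replicate 1 or 3. The Ctsc call (-0.35, limma adjusted p = 0.0349) was lost without TGFb replicate 2 (-0.19, limma adjusted p = 0.263) and without SB431542+TGFb replicate 1 (-0.23, limma adjusted p = 0.194) or 3, and also with no filter (limma adjusted p = 0.0615) or with the compared groups fitted alone (limma adjusted p = 0.0663). SR9011+TGFb against TGFb called 6 of 7, all higher, where 60.8% of all genes were called, from 0.32 for Ctsz to 1.77 for Ctsl. CLK8+TGFb against TGFb called 4 of 7, all higher, where 41.1% of all genes were called, with 0.80 for Ctsl, 0.52 for Ctsd, 0.48 for Ctsb and 0.46 for Ctsa. These comparisons share the TGFb libraries, and those against vehicle share the vehicle libraries.

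**Figure D4:**
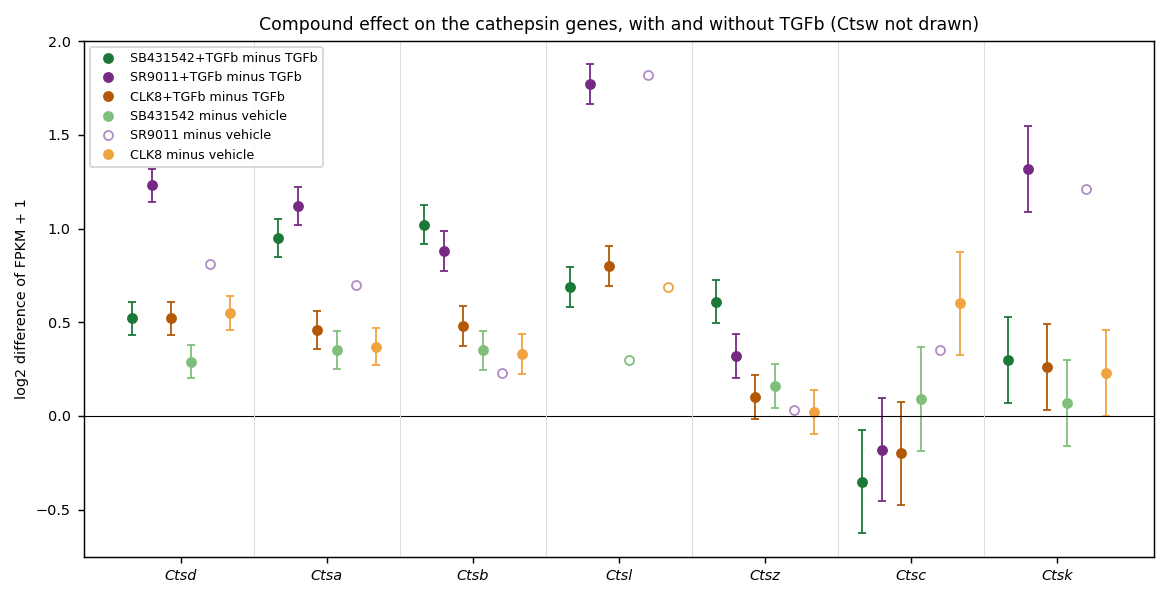
Log2 difference of FPKM + 1 for each compound (vertical axis), with TGFb against TGFb alone and without TGFb against vehicle, for 7 cathepsin genes (horizontal axis). Filled points were tested and carry 95% intervals, and open points are described only. The values of SR9011+TGFb minus TGFb reach 1.77 for Ctsl, 1.32 for Ctsk and 1.23 for Ctsd.

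Over the 8 group means, Ctsl ran with Ctsd (r = 0.953), Ctsk (0.901) and Ctsa (0.844), and less with Ctsb (0.587). Of all fitted genes, the 5 most like Ctsl were the phospholipid transfer gene Pltp (r = 0.996), the lysosomal phospholipase-like gene Plbd2 (0.996), the autophagy gene Uvrag (0.995), the endosomal Washc5 (0.995) and Gnptg (0.995), a subunit gene of the enzyme that makes the mannose 6-phosphate tag. Over the 24 libraries 3 of the 5 stayed among the first 5. Pltp had mean levels of 31.7 FPKM in SB431542+TGFb, 81.9 in SR9011+TGFb, 34.2 in CLK8+TGFb, 19.2 in TGFb, 33.9 in SB431542, 115 in SR9011, 47.9 in CLK8 and 28.8 in vehicle libraries. It also overlaps exons of Ctsa on the other strand.

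Genes of processing and lysosomal sorting were taken as a list of 11, all fitted. The list holds other lysosomal genes, such as Neu1, Glb1 and Scarb2, beside genes of the mannose 6-phosphate tag and its receptors. Under TGFb all 11 rose with SB431542 (median 0.41, against 0.07 over all genes) and all 11 with SR9011 (median 0.49, against 0.05). With CLK8, 9 rose (median 0.29, against 0.05). Calls in either direction took 59.7%, 60.8% and 41.1% of all genes there, in the order named. With SR9011+TGFb against TGFb the largest rises were in the neuraminidase gene Neu1 (1.74), Gnptg (1.05), the mannose 6-phosphate receptor gene Igf2r (1.05) and Nagpa (0.85), which uncovers the tag. Neu1 had 22.7, 23.3 and 22.7 FPKM in SR9011+TGFb libraries, against 6.16, 5.87 and 6.41 FPKM in TGFb libraries, without overlap. Compared with vehicle, 9 of 11 fell with TGFb (median -0.34, against -0.05 over all genes), led by the beta-galactosidase gene Glb1 (-0.68), Sort1 (-0.58), Scarb2 (-0.52) and Neu1 (-0.51). Against vehicle 7 rose with SB431542 (median 0.21, against 0.03 over all genes) and 9 with SR9011 (0.25, against 0.06). With CLK8, 10 rose (0.42, against 0.06), and none fell with any compound. Of all genes, 54.9% were called with TGFb, 16.9% with SB431542, 69.1% with SR9011 and 43.9% with CLK8 against vehicle. With TGFb against without it, 2 fell with SB431542 (median -0.13, against -0.02 over all genes) and 7 with SR9011 (-0.22, against -0.06). With CLK8, 10 fell (-0.36, against -0.07), and none rose with any compound. Of all genes, 4.36%, 45.3% and 51.9% were called there, in the order named. The count with SB431542 was 0 after rescaling to TPM or quantile normalization.

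The proton pump maintains the acid that cathepsins need. Of its 15 V-ATPase genes, all fitted, 13 rose in SB431542+TGFb (median 0.42, against 0.07 over all genes), 15 in SR9011+TGFb (median 0.90, against 0.05) and 14 in CLK8+TGFb (median 0.39, against 0.05), each set against TGFb libraries. Calls in either direction took 59.7%, 60.8% and 41.1% of all genes in these 3 comparisons. Of the 11297 genes fitted, 4328, 4158 and 3130 rose there, in the order named, so many genes outside the list rose as well. Against vehicle, 14 rose with SB431542 (median 0.27, against 0.03 over all genes) and 15 with SR9011 (median 0.92, against 0.06). With CLK8, 13 rose (median 0.47, against 0.06), and 12 fell with TGFb alone (median -0.24, against -0.05). Of all genes, 16.9%, 69.1%, 43.9% and 54.9% were called in these comparisons, in the order named. Atp6v0b, a membrane subunit gene, had 284, 289 and 290 FPKM in SR9011+TGFb libraries, against 81.4, 94.5 and 91.6 FPKM in TGFb libraries (log2 1.68, limma adjusted p = 5.74e-17). Large rises followed in Atp6ap2 (1.45), Atp6v1g1 (1.3) and Atp6v1f (1.12). With TGFb against without it, 3 fell with SB431542 (median -0.11, against -0.02 over all genes), where 4.36% of all genes were called. With SR9011, 12 fell and 1 rose (-0.17, against -0.06), where 45.3% were called. With CLK8, 14 fell and 1 rose (-0.28, against -0.07), where 51.9% were called. Under TPM the counts of falls were 1 with SB431542 and 6 with SR9011.

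**Figure D5:**
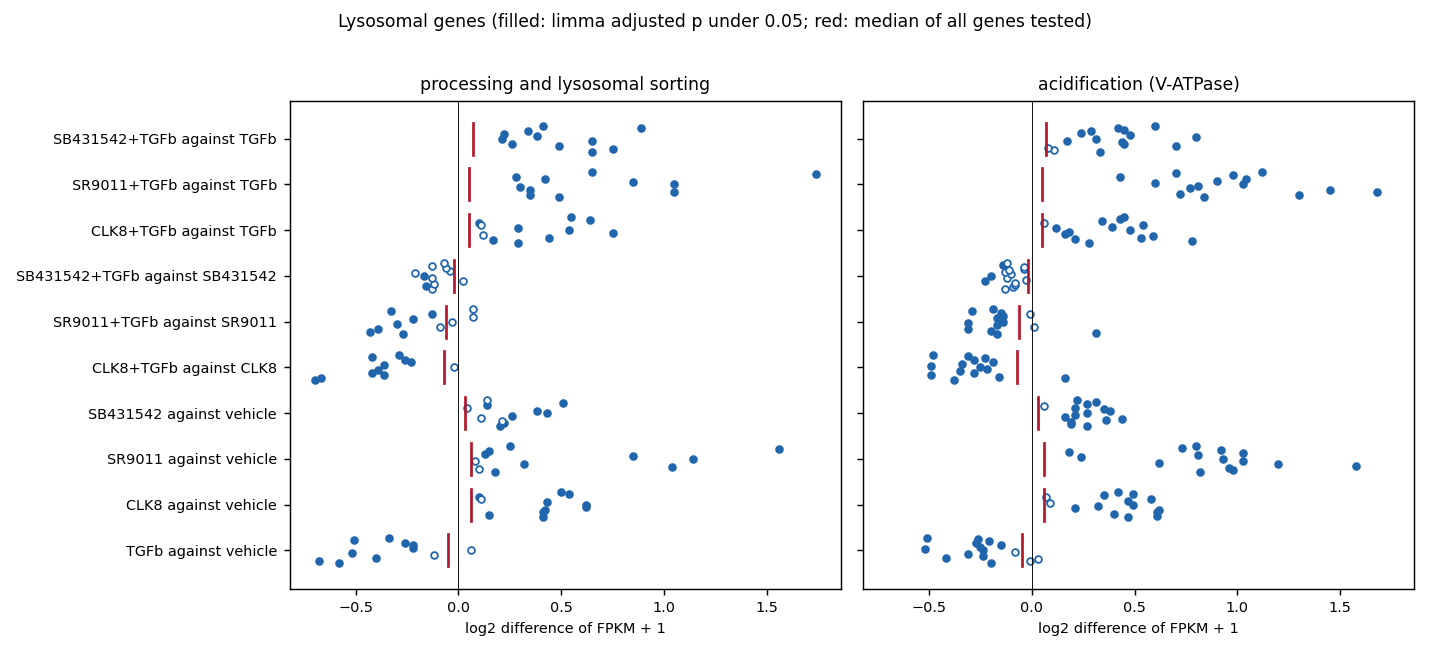
Log2 difference of FPKM + 1 (horizontal axes) of 11 sorting and processing genes and 15 V-ATPase genes in 10 comparisons (vertical axis). Filled points were called, and red marks are the median of all 11297 genes tested. In SR9011+TGFb against TGFb all filled points lie right of the red mark, up to 1.74.

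Of the TFEB family, which drives many lysosomal genes, 2 of 3 genes in the table were fitted. Tfeb had 13.8, 13.3 and 13.8 FPKM in SB431542+TGFb libraries, 9.6, 8.16 and 8.91 FPKM in SR9011+TGFb libraries, 7.76, 7.31 and 7.77 FPKM in CLK8+TGFb libraries, and 8.95, 8.8 and 9.07 FPKM in TGFb libraries. Without TGFb it had 13, 13.9 and 12.9 FPKM with SB431542, 11.7, 10.9 and 9.9 FPKM with SR9011, 10.9, 10.2 and 10.7 FPKM with CLK8, and 13, 13.6 and 13.5 FPKM with vehicle. Tfeb fell with TGFb (-0.53, limma adjusted p = 2.98e-08), and also with SR9011 (-0.28) and CLK8 (-0.31) against vehicle, where the abundant cathepsin genes were level or higher. Tfe3 rose with SR9011 against vehicle by 0.16 (limma adjusted p = 0.0105) and fell with CLK8 by 0.16 (limma adjusted p = 0.02). Mitf reached at most 0.41 FPKM in any library.

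Protein inhibitors of cathepsins did not move as a group. Of 16 listed, 11 were in the table and 8 were fitted, and 4 rose and 3 fell with TGFb against vehicle (median 0.21, against -0.05 over all genes, of which 54.9% were called). Ctla2a, whose product resembles a cathepsin propeptide and inhibits cathepsin L-like enzymes, had 3.77, 2.79 and 3.47 FPKM in SB431542+TGFb libraries, 38.1, 40 and 37.1 FPKM in SR9011+TGFb libraries, 25.3, 24.6 and 29.6 FPKM in CLK8+TGFb libraries, and 13.8, 13 and 10.2 FPKM in TGFb libraries. Without TGFb its means were 3.35 FPKM with SB431542, 2.7 with SR9011, 7.74 with CLK8 and 3.12 with vehicle. It was higher in SR9011+TGFb than in SR9011 libraries by 3.41 (limma adjusted p = 4.4e-17), and higher in SR9011+TGFb than in TGFb libraries by 1.57 (limma adjusted p = 3.39e-11). Its close relative Ctla2b moved likewise, by 2.22 in SR9011+TGFb against SR9011 libraries, and the 2 genes are similar enough that reads may be split between them. Cst3, the gene of the secreted inhibitor cystatin C, fell with TGFb against vehicle by 0.92 (limma adjusted p = 5.19e-11), with 276, 290 and 311 FPKM in TGFb libraries, against 556, 574 and 527 FPKM in vehicle libraries. Cstb, the gene of the cytosolic inhibitor cystatin B, rose with SR9011 against vehicle by 0.70 and in SR9011+TGFb against TGFb by 0.95 (limma adjusted p = 2.75e-10). With SR9011 against vehicle, 2 rose and 4 fell, where 69.1% of all genes were called, and Serpina3g (-2.07), Serpinb1a (-0.59) and Cst3 (-0.48) were lower. In SR9011+TGFb against TGFb, 4 rose and 3 fell, where 60.8% were called, with Serpinb1a (-0.89) and Serpina3g (-0.84) lower. Serpina3g also fell with TGFb against vehicle (-1.22).

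Among the other 13 listed cathepsin genes, 5 were in the table and Ctsf and Ctso were fitted. Ctsf had 16.2, 17.1 and 18.1 FPKM in SB431542+TGFb libraries, 14.8, 14.6 and 16.1 FPKM in SR9011+TGFb libraries, 10.1, 9.59 and 9.87 FPKM in CLK8+TGFb libraries, and 8.46, 9.57 and 9.4 FPKM in TGFb libraries, against 15.8, 17.4 and 16.7 FPKM in vehicle libraries. Ctsf fell with TGFb against vehicle by 0.80 (limma adjusted p = 1.91e-10) and Ctso fell by 0.67 (limma adjusted p = 2.87e-07), where 54.9% of all genes were called. Ctso was low, with means of 0.777 FPKM in TGFb and 1.83 FPKM in vehicle libraries. In SB431542+TGFb against TGFb libraries Ctsf rose by 0.84 and Ctso rose by 0.76, where 59.7% of all genes were called. These genes, from outside the set, were lower with TGFb as the abundant members were, in a comparison where calls are common.

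Matrix genes, whose products some cathepsins cut, went largely the other way under SR9011 and under SB431542. Of 10 fitted, 7 rose and Dcn fell with TGFb against vehicle (median 0.33, against -0.05 over all genes, of which 54.9% were called). In SR9011+TGFb against TGFb, 8 fell and 1 rose (median -0.55, against 0.05 over all genes, of which 60.8% were called). There Col3a1 fell by 1.76, Col1a2 fell by 1.24, Col1a1 fell by 1.23 and Fn1 fell by 0.74. In SB431542+TGFb against TGFb, 7 fell and 1 rose (median -0.47, against 0.07 over all genes, of which 59.7% were called). In CLK8+TGFb against TGFb, 2 rose and 3 fell (median -0.08, against 0.05 over all genes, of which 41.1% were called), and Eln fell by 0.84. Col1a1 had 1047, 1006 and 1028 FPKM in SR9011+TGFb libraries, against 2230, 2415 and 2617 FPKM in TGFb libraries. In this comparison its RNA was thus lower where that of Ctsl and Ctsk was higher. Protein was not measured, and a link between these genes was not tested.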

How the data were processed

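RNA libraries of EMS404 cells in 8 groups of 3 were used, with groups from the sample labels. The deposited FPKM values of the authors have 2 decimals. HISAT2 2.0.4, Bowtie2 2.2.5, RSEM, DESeq2 and the mm10 build are named per the submitters' processing notes. RNA came from either of 2 kits depending on yield, and samples with an RNA integrity number under 6 were discarded, per the labels' protocols. Of 16620 lines, 16 with a repeated identifier were left out. The 11297 genes that reached 1 FPKM in 3 or more libraries were fitted on log2(FPKM + 1) in limma 3.58.1 (R 4.3.3), with trend and robust moderation and 1 coefficient per group, and p-values were 2-sided with Benjamini-Hochberg adjustment. The fit was tested on simulated data. Relative depth, from the steps of 34 low genes, was 0.90 to 1.08. Replicates are biological per the labels' design. No fit or figure drops or imputes a library except where stated.

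Members and lists were chosen with earlier results of these data known. Named are all members, the 10 neighbours of Ctsw, the 5 genes most like Ctsw and Ctsl, and up to 4 called genes per list with the largest change. Same-numbered libraries deviated together in all 3 pairs (r = 0.415, 0.208 and 0.117) for SB431542+TGFb with SB431542 and for none of the other 9 comparisons of 2 groups. Positions and symbols are from GENCODE on GRCm38, and promoter windows from RefSeq. Alternatives were a pseudocount of 0.1, no filter, TPM, quantile normalization, the compared groups alone, a replicate block and leaving out each library. Python 3.11.15 served for tables (pandas 2.3.3, numpy 2.4.6) and figures (matplotlib 3.10.9).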

Additional observations from a re-analysis of the deposited data

Results flagged for a closer look

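The TGFb response differed with and without SB431542, by limma's interaction term, for Ctsb (0.67), Ctsa (0.60), Ctsz (0.45) and Ctsd (0.22), each toward a smaller decrease with the compound. It differed with and without SR9011 for Ctsb (0.64), Ctsa (0.42), Ctsd (0.42) and Ctsz (0.29) in the same direction, and for Ctsc (-0.53) in the opposite one. It differed with and without CLK8 for Ctsc (-0.79). The response of Ctsw differed between SB431542 and SR9011 (-4.95), between CLK8 and SR9011 (-1.10) and between SB431542 and CLK8 (-3.85), in comparisons chosen after seeing the data. The interactions use the TGFb and vehicle libraries, on whose contrast Ctsw was chosen, and are not independent of it.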

How the results depend on the processing

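Of 1049 member values under the alternatives, 999 kept their side of the threshold, and those of them that were called kept their direction. A further 39 fell out of the calls and 11 entered them. Of the values with a call 0 changed sign, and the sign of values not called was not counted. Called members in SB431542 against vehicle numbered 5 under TPM, against 3, because Ctsh then passed the filter and Ctsz (0.18) was called. In SB431542+TGFb against SB431542 they numbered 0 after quantile normalization and 0 in a fit of the compared groups alone, against 1, and the cause was not tested. Under TPM that count stayed at 1, with Ctsl in place of Ctsd. Leaving out 1 library gave 3 to 4 called members for SB431542 against vehicle, 4 to 5 for CLK8 against vehicle, 5 to 7 for SB431542+TGFb against TGFb, 6 for SR9011+TGFb and 4 for CLK8+TGFb against TGFb. It gave 0 for SB431542+TGFb against SB431542, 4 for SR9011+TGFb against SR9011, 6 to 7 for CLK8+TGFb against CLK8, and 4 to 5, 4 to 5 and 1 for the interactions of SB431542, SR9011 and CLK8. With the replicate block, called members numbered 3 in SB431542 against vehicle and 7 in SB431542+TGFb against TGFb, and no call of a member changed in any comparison. The described difference of Ctsw between TGFb and vehicle was 7.66 with a pseudocount of 0.1, 5.96 under TPM, 5.23 after quantile normalization and 5.10 to 5.16 without 1 library, against 5.14. That of Ctsl between SR9011 and vehicle was 1.79 to 1.89 without 1 library. List counts under TPM and quantile normalization were added after seeing the data. Read depth is unknown, so the precision of low values such as Ctss and Ctsh could not be given.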
